A study of Mus musculus with 6 samples.

Results

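The 7 genes described here encode the 4 ID proteins (Id1, Id2, Id3 and Id4) and the 3 E proteins they bind (Tcf3, Tcf4 and Tcf12), taken by gene symbol from a table of 31918 mouse genes. All 7 were in the table, and all 7 were among the 13416 genes tested, which reached 1 FPKM in at least 3 of the 6 libraries. Polyadenylated RNA was sequenced from testis spermatogonia of pups at postnatal day 8, the male germ cells from which spermatogenesis starts. The ID4-GFP Bright group (Bright, 3 libraries) carries the label of high Id4 expression and the ID4-GFP Dim group (Dim, 3 libraries) that of low Id4 expression. Both groups carry the Id4-eGfp (LT11) transgene, a green fluorescent reporter of Id4, so neither is a group without the transgene. The promoter fragment of the transgene, the fluorescence gates and the animal behind each library are not given in the sources used here. P-values therefore speak only of the spread among these 6 samples, and that spread may be technical. The comparison asks how the ID and E-protein genes differ between germ cells with bright and with dim reporter signal. Levels are in FPKM, fragments scaled to transcript length and library size, so genes can be compared per length.

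ID proteins have the helix-loop-helix through which such factors pair, but lack the basic stretch that touches DNA. They pair with E proteins, which are broadly expressed basic helix-loop-helix factors, and keep them from binding the E-box, a short motif written CANNTG. E proteins left free bind E-boxes as pairs of their own or with partners restricted to a tissue, such as the germ cell factors Sohlh1, Sohlh2 and Neurog3. The ID genes are well known as targets of bone morphogenetic protein (BMP) signalling through SMAD factors. Among the 4, ID4 is the one tied to the spermatogonial stem cell state in mouse.

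The sequences upstream of Id4 and Id2 are shown because Id4 was the highest and Id2 the lowest of the ID genes in Bright 1 and Bright 2, whereas their levels in Dim were close. Each is the 250 bases before the RefSeq start of the gene on GRCm38.p6, 5′ to 3′ along the strand of the gene, with 2 motifs in capitals. The motifs are CANNTG and GGCGCC, a GC-rich element bound by SMAD factors of the BMP pathway. Both motifs read the same on either strand, and the matches shown do not overlap. The Id4 sequence lies at chr13:48260866-48261115 on the plus strand and the Id2 sequence at chr12:25096093-25096342 on the minus strand.
Id4: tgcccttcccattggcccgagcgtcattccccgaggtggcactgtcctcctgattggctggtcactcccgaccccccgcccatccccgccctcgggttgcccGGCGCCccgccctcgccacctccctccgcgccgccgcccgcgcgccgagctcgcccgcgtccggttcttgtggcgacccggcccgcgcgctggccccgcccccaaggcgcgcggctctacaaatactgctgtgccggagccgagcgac
Id2: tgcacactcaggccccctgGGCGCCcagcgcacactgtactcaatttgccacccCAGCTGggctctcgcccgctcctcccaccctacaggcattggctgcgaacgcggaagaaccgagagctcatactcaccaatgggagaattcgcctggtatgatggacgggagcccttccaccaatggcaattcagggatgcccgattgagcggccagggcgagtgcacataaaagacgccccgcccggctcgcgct
The Id4 sequence held 0 matches to CANNTG and 1 to GGCGCC, which begins 148 bases before the start, and 75.6% of its bases were G or C. The Id2 sequence held 1 match to each, a CAGCTG that begins 196 bases and a GGCGCC that begins 231 bases before the start, with 62.8% G or C. In 32851 RefSeq windows of the same length, 66.2% held at least 1 CANNTG, 13.0% a CAGCTG and 9.59% a GGCGCC, so an upstream sequence without an E-box is common. The Id3 sequence (chr4:136143572-136143821, plus strand), which is not printed, held 0 matches to either motif. In the deposited table the Id4 gene starts 311 bases downstream of the RefSeq start, and the start of Id2 is the same in both. The Id3 gene starts there at 136143497, ahead of the Id3 sequence, which thus lies wholly inside the gene as measured. Its 0 matches are therefore no result about the bases before that start.

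Germ cell markers were present in every library. The summed level of 6 of them, Ddx4, Dazl, Zbtb16, Sall4, Uchl1 and Gfra1, of which Uchl1 and Dazl were the most abundant, was 1756.1, 1997.7 and 1571.9 FPKM in Bright 1, 2 and 3, against 1763.0, 2014.9 and 2229.1 FPKM in Dim 1, 2 and 3. Of the 6, 3 were called with the larger level in Bright, as were 12.0% of all genes tested, and 0 with it in Dim. Gfra1 was at 76.7 to 87.7 FPKM in Bright, against 3.33 to 7.24 FPKM in Dim. Dazl ran the other way, at 437.7 to 504.8 FPKM in Bright, against 570.7 to 669.7 FPKM in Dim. For Uchl1 the groups overlapped, at 646.4 to 975.1 FPKM in Bright, against 789.3 to 1197.4 FPKM in Dim. Bright 3 stood apart from the other 5 libraries by markers of other testis cells. Its 8 Leydig markers summed to 1807.9 FPKM, against 2.14 and 2.54 in Bright 1 and 2 and 1.65 to 2.56 in Dim. Its 10 Sertoli markers summed to 585.7 FPKM, against 12.9 and 22.3 in Bright 1 and 2 and 14.5 to 32.6 in Dim. The peritubular myoid, stromal, endothelial, macrophage and erythroid sums were also highest in Bright 3, at 82.9, 216.4, 28.5, 143.8 and 10.9 FPKM. Of the Leydig sum of Bright 3, Insl3 alone gave 1369.8 FPKM. Hsd3b6 was at 60.9 FPKM in Bright 3 and at 0 in the other 5 libraries. Star was at 36.7 FPKM in Bright 3 and at 1.29 to 1.7 FPKM in the other 5, and Cyp11b1 was not raised in Bright 3 (0.00869 FPKM). The macrophage sum did not follow the groups either, at 3.27 and 3.81 FPKM in Bright 1 and 2, against 48.7, 55.5 and 3.82 FPKM in Dim 1, 2 and 3. The 7 genes and the list counts are therefore given with and without Bright 3, and calls of named list genes that end without it are marked. In bulk samples fewer cells of a type and less RNA per cell cannot be told apart.

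**Figure D1:**
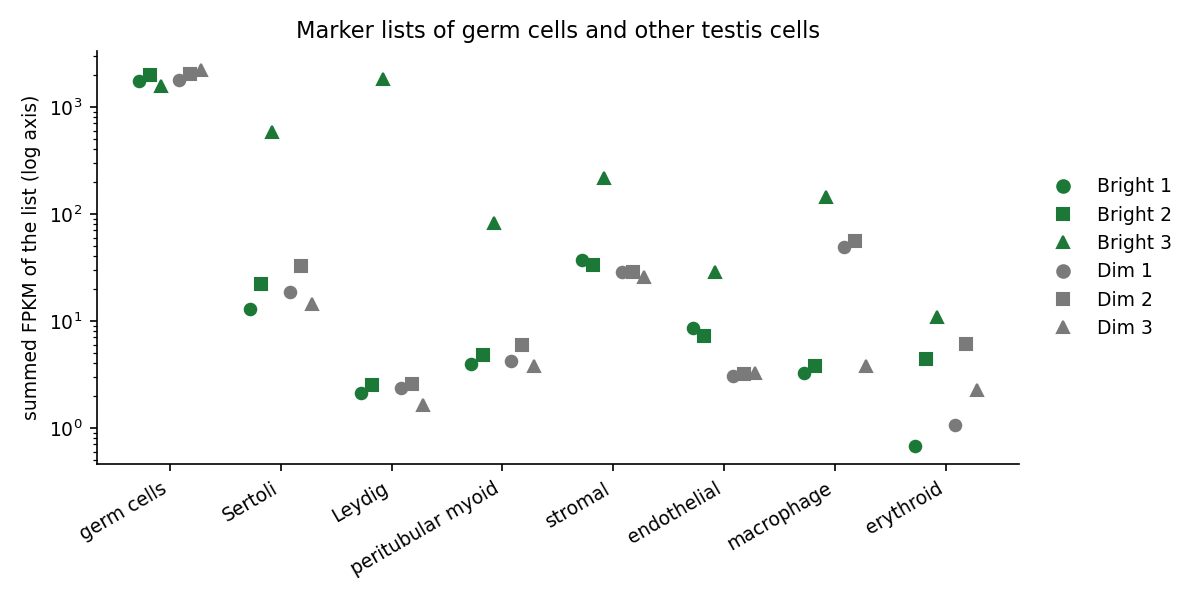
Summed FPKM of the markers of each cell type in the 6 libraries, on a log axis, with Bright left of Dim; each point is 1 library. The germ cell sums lie between 1571.9 and 2229.1 FPKM in all 6, and the Leydig sum of Bright 3, at 1807.9 FPKM, stands far above 1.65 to 2.56 FPKM in the others.

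Id4 was higher in Bright and was the ID gene with the largest log2 fold change. This gene (ENSMUSG00000021379, chromosome 13, 48261427 to 48264036, plus strand, protein coding) measured 28.5, 42.7 and 39.7 FPKM in Bright 1, 2 and 3, against 3.75, 4.71 and 5.39 FPKM in Dim 1, 2 and 3. Every Bright library lay above every Dim library, and Bright 3 lay between the other Bright libraries. The means were 37.0 ± 7.51 FPKM in Bright and 4.62 ± 0.821 FPKM in Dim (SD, n = 3 each), 8.0 times as high in Bright. The log2 fold change on log2(FPKM + 1) was 2.75 (standard error 0.19), with a 95% interval of 2.31 to 3.18 (limma adjusted p = 9.69e-05). An exact permutation test, two-sided, gave p = 0.1, the smallest that the 20 arrangements of 3 against 3 libraries allow. Id4 checks the label of the sort and is no independent result, since its reporter defined the groups. Without Bright 3 the log2 fold change was 2.69 (adjusted p = 0.00176), and the call held with each library left out in turn, at 2.63 to 2.92. In Dim the transcript was present in all 3 libraries, at roughly 388 to 711 reads by an approximate conversion. That conversion used a transcript of 3849 bases, longer than the gene as placed above, so these reads may be overstated.

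**Figure D2:**
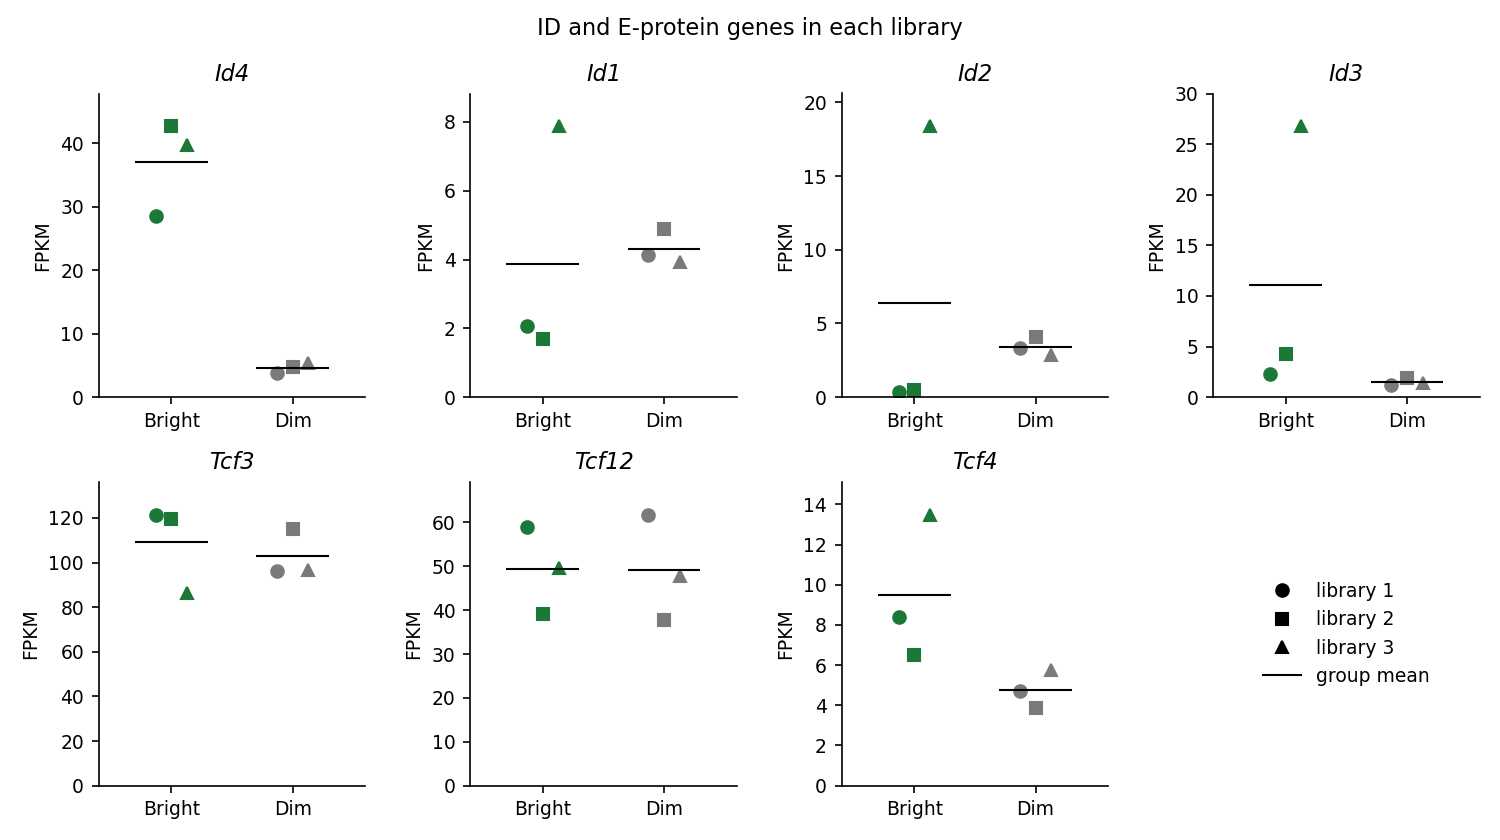
FPKM of the 7 genes in each library, 1 panel a gene, with Bright left of Dim; markers number the libraries and lines give the group means. Id4 and Tcf4 are higher in all Bright than in all Dim libraries, the Bright 3 point is far above Bright 1 and 2 for Id1, Id2 and Id3, and Tcf3 and Tcf12 overlap.

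Across the family, 2 of the 7 genes were called at a limma adjusted p under 0.05 over all genes tested, Id4 and Tcf4, both higher in Bright. Of all 13416 genes 22.5% were called, 12.0% with the higher level in Bright and 10.5% with it in Dim. Without Bright 3, 3 of the 7 were called, Id4 higher in Bright and Id1 and Id2 higher in Dim, where 18.9% of all genes passed, 10.6% toward Bright and 8.37% toward Dim. The groups did not overlap for 3 of the 7 genes (Id3, Id4 and Tcf4, each above in Bright), against 41.1% of all genes, 20.4% with every Bright library above every Dim library and 20.8% with every Bright library below. Without Bright 3 they did not overlap for 6 of the 7, all but Tcf12, against 50.4% of all genes. Id4, whose reporter defined the groups, is in each of these counts of the 7 and is no independent result. Without Bright 3, Id2 met the filter through Dim alone, so its call there was favoured by the filter.

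Id2, which restrains E proteins in many differentiating lineages, was the ID gene that varied most between Bright libraries by ratio, though not by SD in FPKM. This gene (ENSMUSG00000020644, chromosome 12, 25093801 to 25096092, minus strand) measured 0.346, 0.455 and 18.4 FPKM in Bright 1, 2 and 3, against 3.36, 4.05 and 2.83 FPKM in Dim 1, 2 and 3. Bright 1 and 2 lay below every Dim library and Bright 3 above every one, at 46.0 times the mean of Bright 1 and 2. The group means were 6.41 ± 10.4 FPKM in Bright and 3.41 ± 0.608 FPKM in Dim (SD, n = 3 each). With all 6 libraries the log2 fold change was -0.38 with a 95% interval of -3.41 to 2.64 (adjusted p = 0.845, exact permutation p = 1.0), so the interval spans large differences in either direction. The mean of the log values and the mean FPKM differ in sign here. Without Bright 3, Id2 averaged 0.401 FPKM in Bright, and Dim was 8.52 times as high. That log2 fold change was -1.65 (standard error 0.16), with an interval of -2.04 to -1.25 (adjusted p = 0.00264), and the exact test gave p = 0.1, the smallest that the 10 arrangements of 2 against 3 allow. Without Bright 1 or Bright 2 it was 0.28 and 0.22, with adjusted p = 0.907 and 0.925. The call thus rests on leaving out Bright 3. By an approximate conversion Id2 had about 10 and 17 reads in Bright 1 and 2, 835 in Bright 3 and 114 to 164 in Dim. Id2 passed the filter through the Dim libraries and Bright 3, so without Bright 3 it met the filter in Dim alone.

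Id1, a strongly BMP-responsive member of the family, had the same arrangement with smaller differences. It (ENSMUSG00000042745, chromosome 2, 152736251 to 152737410, plus strand) measured 2.08, 1.69 and 7.88 FPKM in Bright 1, 2 and 3, against 4.12, 4.89 and 3.92 FPKM in Dim 1, 2 and 3. Bright 1 and 2 were again below every Dim library, and Bright 3 above every one. The means were 3.88 ± 3.47 FPKM in Bright and 4.31 ± 0.514 FPKM in Dim (SD, n = 3 each). The log2 fold change was -0.34 with an interval of -1.35 to 0.67 (adjusted p = 0.617, exact permutation p = 0.5). Without Bright 3 the mean of Bright was 1.88 FPKM, Dim was 2.29 times as high, and the log2 fold change was -0.88 with an interval of -1.25 to -0.51 (adjusted p = 0.0126). This call, too, was made with Bright 3 left out and with no other library left out.

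Markers of other cells also differed between some of the libraries in which Id1 and Id2 were low and high. The 8 macrophage markers summed to 3.27, 3.81 and 143.8 FPKM in Bright 1, 2 and 3, against 48.7, 55.5 and 3.82 FPKM in Dim 1, 2 and 3. Their sum was thus high in Bright 3, Dim 1 and Dim 2 and low in Bright 1, Bright 2 and Dim 3. The Leydig sums were 2.14 and 2.54 FPKM in Bright 1 and 2, against 2.38, 2.56 and 1.65 FPKM in Dim 1, 2 and 3. For the same libraries the Sertoli sums were 12.9 and 22.3 FPKM in Bright, against 18.5, 32.6 and 14.5 FPKM in Dim. The peritubular myoid sums were 3.93 and 4.75 FPKM in Bright, against 4.25, 5.96 and 3.77 FPKM in Dim. Single markers went otherwise. Wt1, a Sertoli marker, was at 1.73 and 1.51 FPKM in Bright 1 and 2, against 3.14 to 3.49 FPKM in Dim. Without Bright 3, 1 of 7 Sertoli markers tested was called higher in Dim, against 8.37% of all genes tested. The part of any of these cells in the levels of Id1 and Id2, in Bright 3 or in the other libraries, was not tested.

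Id3, a BMP target often expressed together with Id1, was higher in every Bright library but was not called. It (ENSMUSG00000007872, chromosome 4, 136143497 to 136145755, plus strand) measured 2.26, 4.24 and 26.8 FPKM in Bright 1, 2 and 3, against 1.24, 1.88 and 1.37 FPKM in Dim 1, 2 and 3. The groups did not overlap, yet the lowest Bright and the highest Dim library were close, and Bright 3 was 8.25 times the mean of Bright 1 and 2. The means were 11.1 ± 13.6 FPKM in Bright and 1.5 ± 0.338 FPKM in Dim (SD, n = 3 each). The log2 fold change was 1.65 with an interval of -0.47 to 3.77 (adjusted p = 0.229, exact permutation p = 0.1). Without Bright 3 the mean of Bright was 3.25 FPKM, 2.17 times that of Dim, and the log2 fold change was 0.74 with an interval of 0.17 to 1.30 (adjusted p = 0.0778). In the other leave-outs the adjusted p reached 0.443, and none gave a call. The 8 endothelial markers were also higher in sum in Bright, at 8.66, 7.18 and 28.5 FPKM, against 3.06, 3.2 and 3.27 FPKM in Dim, while Emcn, Esam and Tie1 stayed below 0.2 FPKM in all libraries but Bright 3. Their part in the values of Id3 was not tested.

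**Figure D3:**
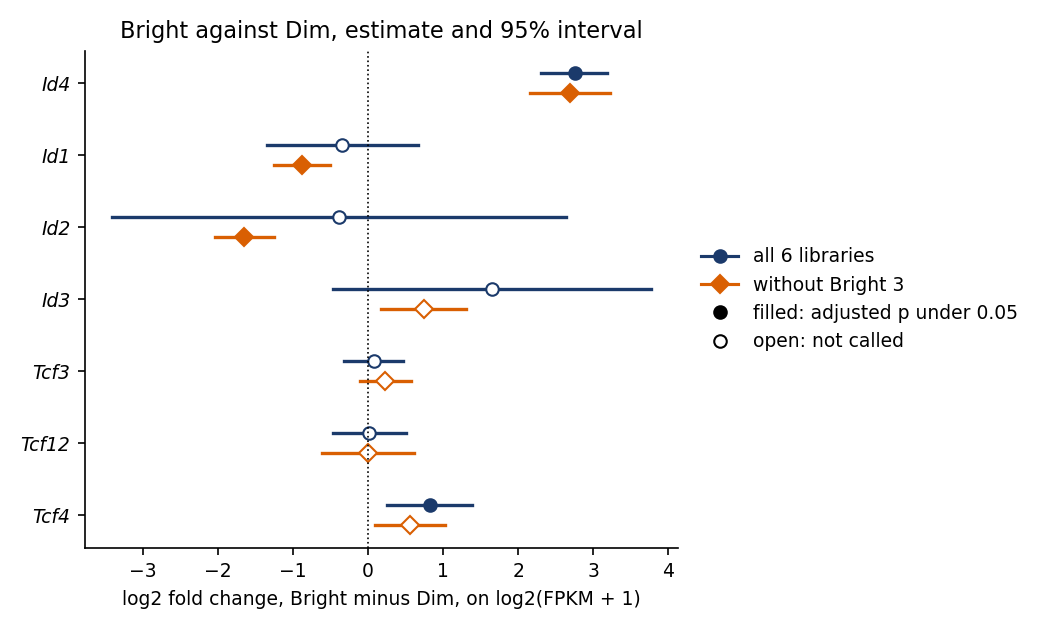
Log2 fold change, Bright minus Dim on log2(FPKM + 1), with 95% intervals for the 7 genes, from all 6 libraries and without Bright 3; filled points were called. The intervals of Id1, Id2 and Id3 narrow without Bright 3, Id1 and Id2 then lie below 0, and Id4 stays at 2.75 and 2.69.

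The make-up of the ID pool differed between the libraries. Summed over the 4 genes, the ID level was 33.1, 49.1 and 92.8 FPKM in Bright 1, 2 and 3, against 12.5, 15.5 and 13.5 FPKM in Dim 1, 2 and 3. The E-protein sum varied less, at 188.9, 165.2 and 149.8 FPKM in Bright, against 162.9, 156.6 and 150.3 FPKM in Dim. These sums are descriptions of transcripts and carry no test. Id4 made up 85.9%, 87.0% and 42.8% of the ID sum in Bright 1, 2 and 3, against 30.1%, 30.3% and 39.9% in Dim 1, 2 and 3. In Bright 1 and 2 the pool was thus mostly Id4, whereas in Dim it was spread over the 4 genes. Since Id4, whose reporter defined the groups, is in the sum, a higher Id4 by itself lowers the shares of the other genes. Id2 gave 1.04%, 0.927% and 19.8% of it in Bright, against 26.9%, 26.1% and 21.0% in Dim. The share of Id1 was 6.27%, 3.44% and 8.49% in Bright, against 33.0%, 31.5% and 29.0% in Dim although its level in Bright 3 was the highest of all 6 libraries. That of Id3 was 6.81%, 8.64% and 28.9% in Bright, against 9.95%, 12.1% and 10.1% in Dim. Left without Id4, the other 3 ID genes summed to 4.68, 6.38 and 53.1 FPKM in Bright, against 8.71, 10.8 and 8.13 FPKM in Dim, so in Bright 1 and 2 the other 3 ID genes together lay below every Dim library.

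E-protein transcripts exceeded ID transcripts in all 6 libraries. The ratio of the ID sum to the E-protein sum was 0.176, 0.297 and 0.619 in Bright 1, 2 and 3, against 0.0766, 0.0991 and 0.0899 in Dim 1, 2 and 3. All Bright libraries lay above all Dim libraries. The means were 0.364 ± 0.229 in Bright and 0.0885 ± 0.0114 in Dim (SD, n = 3 each), and 0.236 over Bright 1 and 2. The difference of the means was 0.276, and with a library left out it lay between 0.148 without Bright 3 and 0.37 without Bright 1. Since it counts Id4, on whose reporter the cells were divided, it is no independent result.

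**Figure D4:**
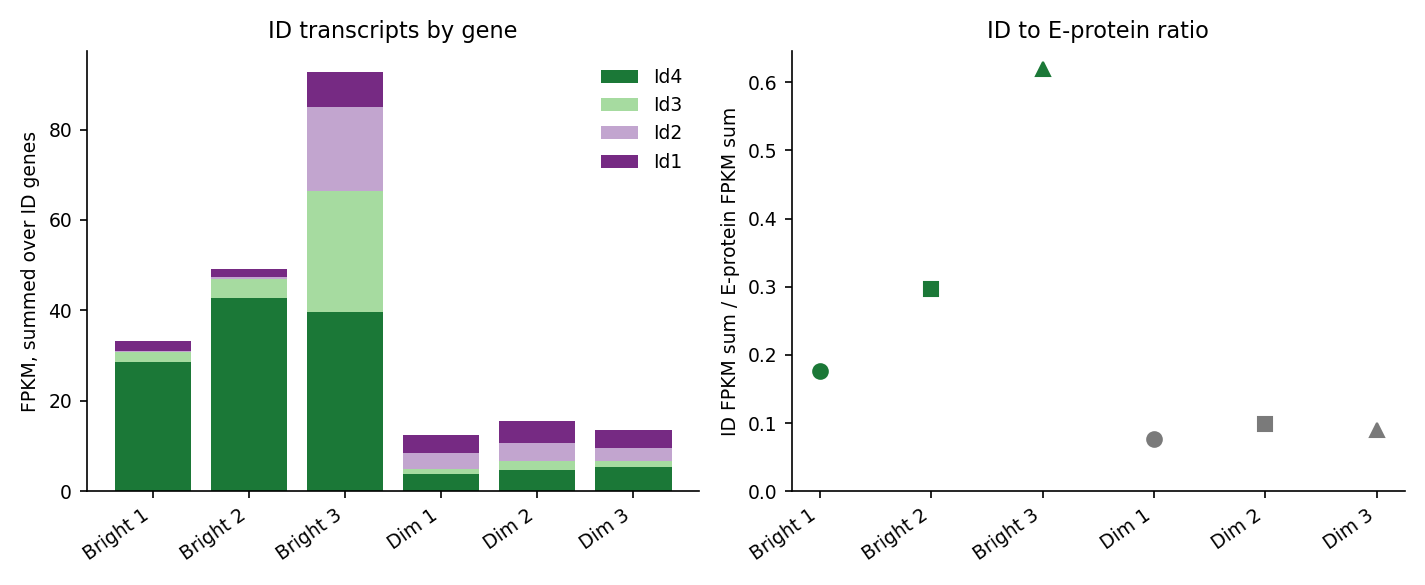
Left, stacked FPKM of Id1, Id2, Id3 and Id4 in each library, Bright left of Dim; right, the ratio of the ID sum to the E-protein sum. Id4 fills 85.9% and 87.0% of the bars of Bright 1 and 2, the other ID genes most of those of Dim, and Bright 3 has the tallest bar, at 92.8 FPKM.

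Tcf3 and Tcf12 were the most abundant of the 7 genes in both groups, and neither was called. Tcf3 (ENSMUSG00000020167, chromosome 10, 80409514 to 80433647, minus strand), the E-protein gene best known from lymphocyte development, measured 121.5, 119.5 and 86.5 FPKM in Bright 1, 2 and 3, against 96.4, 115.0 and 96.8 FPKM in Dim 1, 2 and 3. Bright held both the highest and the lowest library. The means were 109.2 ± 19.6 FPKM in Bright and 102.7 ± 10.6 FPKM in Dim (SD, n = 3 each), with a log2 fold change of 0.08 and an interval of -0.32 to 0.47 (adjusted p = 0.786). Tcf3 stood above 92.7% to 95.3% of the genes tested in each library. Without Bright 3 its log2 fold change was 0.23 with an interval of -0.11 to 0.57 (adjusted p = 0.305).

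Tcf12 (ENSMUSG00000032228, chromosome 9, 71842688 to 72111871, minus strand), which encodes the E protein HEB, measured 58.9, 39.2 and 49.7 FPKM in Bright 1, 2 and 3, against 61.8, 37.8 and 47.7 FPKM in Dim 1, 2 and 3. The groups covered nearly the same range, and libraries with the same number were close to each other. The means were 49.3 ± 9.89 FPKM in Bright and 49.1 ± 12.0 FPKM in Dim (SD, n = 3 each), with a log2 fold change of 0.01 and an interval of -0.47 to 0.50 (adjusted p = 0.971). Without Bright 3 it was -0.0, with an interval of -0.61 to 0.61 (adjusted p = 0.997). The sign of so small a difference was not stable and turned to -0.03 under TMM scaling. The bounds farthest from 0 were 0.47 for Tcf3 and 0.50 for Tcf12, so differences up to those sizes lie within the intervals.

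Tcf4, the E-protein gene tied to neural and plasmacytoid dendritic cell development, was higher in Bright, by a small margin past the threshold. The gene (ENSMUSG00000053477, chromosome 18) measured 8.42, 6.52 and 13.5 FPKM in Bright 1, 2 and 3, against 4.69, 3.89 and 5.75 FPKM in Dim 1, 2 and 3. Every Bright library lay above every Dim library, and Bright 3 was the highest. The means were 9.49 ± 3.63 FPKM in Bright and 4.78 ± 0.933 FPKM in Dim (SD, n = 3 each), 1.99 times as high in Bright, with a log2 fold change of 0.82, a standard error of 0.25 and an interval of 0.25 to 1.38 (adjusted p = 0.0459, exact permutation p = 0.1). The call ended when Bright 1, Bright 3, Dim 1, Dim 2 or Dim 3 was left out (adjusted p = 0.0819, 0.0972, 0.0894, 0.122 and 0.0684) and was kept without Bright 2 (0.0182). Without Bright 3 the log2 fold change was 0.56, with an interval of 0.09 to 1.02. The call also ended with no filter on low values, under upper-quartile scaling and without the variance trend (adjusted p = 0.115, 0.0871 and 0.0544). The 8 endothelial markers summed to 8.66, 7.18 and 28.5 FPKM in Bright, against 3.06, 3.2 and 3.27 FPKM in Dim. Of these, 4 were tested and called higher in Bright (3 without Bright 3), against 12.0% of all genes tested (10.6% without Bright 3). Cdh5, Kdr and Tek met the filter through Bright alone, so their calls are no support. The 8 stromal markers summed to 37.0, 33.4 and 216.4 FPKM in Bright, against 28.7, 28.9 and 25.5 FPKM in Dim. Of 6 tested, 1 was called higher in Bright, against 12.0% of all genes tested, so this count is no result about stromal cells. In Bright 1 and 2 the stromal sum was mostly Col1a1 (25.7 and 22.8 FPKM) and Pdgfra (6.13 and 6.46 FPKM), while Nr2f2 was at 0.359 and 0.379 FPKM in Bright 1 and 2, against 0.749 to 1.27 FPKM in Dim. The part of these cells in the level of Tcf4 was not tested. Within the E-protein sum Tcf4 made up 4.46%, 3.95% and 9.03% in Bright 1, 2 and 3, against 2.88%, 2.48% and 3.82% in Dim 1, 2 and 3, while Tcf3 gave 57.8% to 72.3% in Bright and 59.2% to 73.4% in Dim.

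By mean level the order in Bright was Tcf3, Tcf12, Id4, Id3, Tcf4, Id2 and Id1. Neighbours from Tcf12 to Id4 and from Id3 down to Id1 overlapped in range. In Bright 1 and 2 the order was Tcf3, Tcf12, Id4, Tcf4, Id3, Id1 and Id2, and of these neighbours Tcf12 and Id4 overlapped. In Dim it was Tcf3, Tcf12, Tcf4, Id4, Id1, Id2 and Id3, where Tcf4, Id4, Id1 and Id2 overlapped each with the next. Id4 thus stood beside Tcf12 in Bright and beside Tcf4 and Id1 in Dim. Id2 was the lowest of the 7 in Bright 1 and 2, and Id3 the lowest in Dim.

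Genes that act around the ID proteins were read as 6 lists, chosen with earlier results of these data known, and in them 23 genes were called. Shares of calls below are read against 12.0% higher in Bright and 10.5% higher in Dim over all genes, or 10.6% and 8.37% without Bright 3. Of the BMP list's 28 genes 18 were tested, with 7 calls (38.9%) toward Bright, 2 (11.1%) toward Dim and 9 genes not called. Bmp4 and Eng were under 1 FPKM in every Dim library and met the filter through Bright alone, so those 2 of the 7 calls were largely set by the filter. The median log2 fold change was 0.32, against -0.03 over all genes, and without Bright 3 there were 7 and 1, with a median of 0.26. Among the ligands, Bmp4 was at 4.98 ± 1.28 FPKM in Bright and 0.47 ± 0.155 FPKM in Dim (log2 fold change 2.01, adjusted p = 0.000423), and Bmp6 at 3.74 ± 0.472 FPKM in Bright, against 1.64 ± 0.258 FPKM in Dim. Bmp8b, a germ cell BMP, was at 0.777 ± 0.297 FPKM in Bright and 1.82 ± 0.387 FPKM in Dim (adjusted p = 0.0295), losing its call when Bright 2, Bright 3, Dim 1 or Dim 2 was left out (adjusted p = 0.0753, 0.0711, 0.084 and 0.0752). Called inhibitors of the pathway were higher in Bright, and of these Fst, the secreted antagonist follistatin, was at 21.2 ± 3.39 FPKM in Bright, against 2.95 ± 0.604 FPKM in Dim (log2 fold change 2.49, adjusted p = 9.69e-05). The inhibitory SMAD genes Smad6 and Smad7 ran the same way, Smad6 at 6.63 ± 0.916 FPKM in Bright, against 1.21 ± 0.261 FPKM in Dim, and Smad7 at 15.9 ± 0.954 FPKM in Bright, against 6.75 ± 0.655 FPKM in Dim (adjusted p = 0.000346 and 0.000989). Smad1, which carries the BMP signal to the nucleus, was lower in Bright, at 10.8 ± 0.572 against 17.1 ± 0.366 FPKM in Dim (adjusted p = 0.00875). Fst, Bmp6, Smad1, Smad6 and Smad7 kept their calls with each library left out in turn. Bmp4 did as well, but the filter was set on all 6 libraries each time, so for Bmp4 this is no support. Of the receptors, Bmpr1b was at 2.45 ± 0.331 FPKM in Bright, against 1.29 ± 0.164 FPKM in Dim (adjusted p = 0.0241), losing its call when Bright 1, Dim 1, Dim 2 or Dim 3 was left out (0.0794, 0.0759, 0.0837 and 0.0539). The co-receptor Eng was at 3.85 ± 2.55 FPKM in Bright, against 0.722 ± 0.145 FPKM in Dim (adjusted p = 0.0164), losing its call when Dim 1 or Dim 3 was left out (0.0645 and 0.0594), and is also abundant in endothelium. The receptor Bmpr1a, at 45.5 FPKM in Bright and 35.8 FPKM in Dim, was not called (adjusted p = 0.454). By library it was at 59.3, 30.9 and 46.4 FPKM in Bright 1, 2 and 3, against 46.8, 23.8 and 36.7 FPKM in Dim 1, 2 and 3. Bright was thus the higher within each library number, which the fit did not use.

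Factors that E proteins pair with or compete with were counted in the same way. Of 39 tissue-restricted basic helix-loop-helix genes 24 stayed under 1 FPKM in all libraries and 12 were tested, with 1 (8.33%) higher in Bright, 2 (16.7%) higher in Dim and a median of -0.26 (without Bright 3, 2 and 2). Twist1, a mesodermal factor, was at 7.4 ± 2.19 FPKM in Bright and 2.59 ± 0.858 FPKM in Dim (adjusted p = 0.00964). Ascl2 was at 6.65 ± 0.644 FPKM in Bright, against 12.2 ± 1.15 FPKM in Dim (adjusted p = 0.00589). Neurog3, a factor of spermatogonial progenitors, was at 7.41 ± 0.104 FPKM in Bright, against 12.4 ± 3.4 FPKM in Dim (adjusted p = 0.0435), losing its call when Bright 1, Bright 2, Bright 3, Dim 2 or Dim 3 was left out (0.0943, 0.0756, 0.103, 0.0948 and 0.145). The abundant germ cell members Sohlh1, Sohlh2 and Tcfl5 were not called, at 121.6, 46.8 and 55.2 FPKM in Bright against 154.4, 62.8 and 54.8 FPKM in Dim. Among 15 E-box repressors, 11 tested, 2 calls (18.2%) lay toward Bright and 2 (18.2%) toward Dim, with a median of -0.3 (without Bright 3, 2 and 1). The Notch targets Hes1 and Hey1 went opposite ways, Hes1 at 31.7 ± 0.987 FPKM in Bright, against 20.0 ± 2.08 FPKM in Dim (adjusted p = 0.00899) and Hey1 at 6.82 ± 1.68 FPKM in Bright, against 11.3 ± 1.11 FPKM in Dim (0.0321). Bhlhe41, a repressor of clock genes, was at 8.31 ± 0.921 FPKM in Bright and 3.52 ± 0.627 FPKM in Dim, and Snai3 at 7.26 ± 1.18 FPKM in Bright, against 11.6 ± 0.672 FPKM in Dim (adjusted p = 0.0205). Hey1 lost its call without Bright 2, Bright 3, Dim 1, Dim 2 or Dim 3 (0.0603, 0.0743, 0.0756, 0.0703 and 0.0682) and Snai3 without Bright 3, Dim 2 or Dim 3 (0.0501, 0.0731 and 0.0662).

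Of 16 cofactors that E proteins recruit 15 were tested, with 2 (13.3%) higher in Bright, 1 (6.67%) higher in Dim and a median of 0.24 (without Bright 3, 3 and 0). The acetyltransferase gene Kat2b was at 14.7 ± 4.13 FPKM in Bright and 2.8 ± 0.65 FPKM in Dim (log2 fold change 2.03, adjusted p = 0.000731). The deacetylase gene Hdac3 was at 44.4 ± 3.68 FPKM in Bright, against 61.0 ± 6.39 FPKM in Dim (adjusted p = 0.0467), a call that each of the 6 leave-outs, Bright 3 included, ended (adjusted p 0.0544 to 0.172). Of 15 genes of ID turnover or of ID partners outside the basic helix-loop-helix class 12 were tested, with a median of 0.08. By limma 2 (16.7%) were higher in Bright and none of the 12 (0) higher in Dim, where an unadjusted p under 0.05 gave 1, and without Bright 3 the counts were again 2 and 0. The called genes were Pax8, at 3.86 ± 0.908 FPKM in Bright, against 1.47 ± 0.257 FPKM in Dim (adjusted p = 0.00734), and the ETS factor gene Elk4, at 37.7 ± 1.2 FPKM in Bright, against 24.9 ± 3.12 FPKM in Dim (0.0152), the call of Elk4 being lost without Dim 2 or Dim 3 (0.0642 and 0.0621). Usp1, whose enzyme removes ubiquitin from ID proteins, was at 44.0 ± 4.69 FPKM in Bright, against 60.7 ± 8.52 FPKM in Dim and was not called (adjusted p = 0.0628). All 7 cyclin-dependent kinase inhibitor genes were tested, with 1 call (14.3%) each way and a median of 0.38, and 1 call each way without Bright 3. Cdkn1c was at 29.4 ± 5.72 FPKM in Bright and 11.9 ± 0.336 FPKM in Dim (adjusted p = 0.00157), and Cdkn2c at 2.09 ± 0.435 FPKM in Bright, against 5.49 ± 1.91 FPKM in Dim (0.0147). Cdkn1a, the inhibitor best known as an E-protein target, was at 7.64 FPKM in Bright and 5.33 FPKM in Dim and was not called (adjusted p = 0.18).

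**Figure D5:**
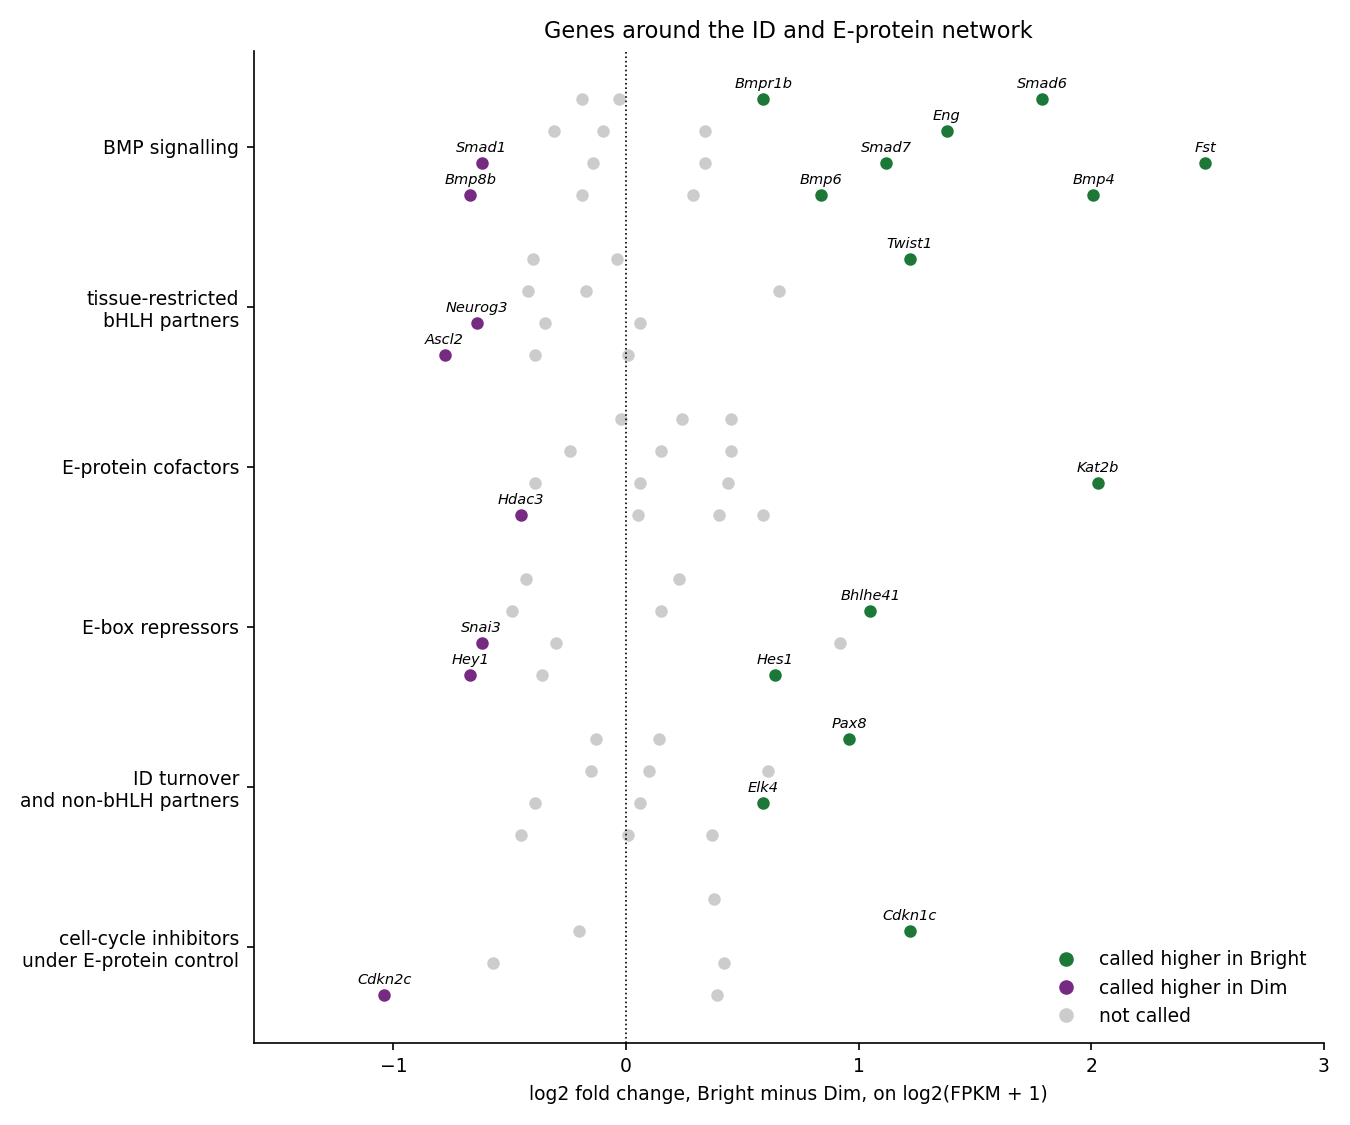
Log2 fold change, Bright minus Dim on log2(FPKM + 1), of tested genes of the 6 lists, 1 point a gene, with called genes coloured and named (green, higher in Bright; purple, higher in Dim); vertical offsets within a list carry no value. The BMP list has 7 called genes to the right of 0 and 2 to the left, and the other lists have 0 to 2 on either side.

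The profile of each gene over the 6 libraries was set beside those of 9082 tested genes with a mean of at least 5 FPKM, by the root mean square difference of centred log2(FPKM + 1) values. Id4 was most like Col13a1 (0.098), a collagen gene at 14.6 ± 2.88 FPKM in Bright and 1.45 ± 0.453 FPKM in Dim, then Rab4a (0.141) and Pqlc1 (0.147). Id2 was nearest to Ppt1 (0.283), which had 50.7 FPKM in Bright 3 against 4.35 and 5.26 FPKM in Bright 1 and 2. Id1 was nearest to Thra (0.162), Id3 to Plpp3 (0.203) and Tcf4 to Slc44a2 (0.0772). Tcf3 was nearest to Atxn7l2 (0.0399) and Tcf12 to Rif1 (0.0276). Likeness is smaller in number for genes that vary little, so these values rank matches within 1 gene and not between genes.

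The authors' deposited table of the pooled groups gave q under 0.05 for Id3, Id4 and Tcf4. Of the genes tested here, 14.6% passed that threshold in the authors' deposited table, 8.77% toward Bright and 5.81% toward Dim. Id3 had a log2 ratio, Bright over Dim, of 2.81 (q = 0.000921) in the authors' deposited table, where the 6-library test above did not call it. The authors' deposited table gave Id4 a log2 ratio of 3.03 (q = 0.000921) and Tcf4 one of 0.97 (q = 0.00567). For Id2 the authors' deposited table gave 0.94 when pooled (q = 0.198), against -3.21, -3.11 and 2.69 for the pairs of libraries numbered 1, 2 and 3. None of these pairs passed (q = 0.902, 0.589 and 0.771). The sign of the pooled value was that of the third pair and not of the other pairs. Id1 had -1.12, -1.57 and 0.86 for the same pairs (q = 0.999 for each) and -0.24 when pooled in the authors' deposited table (q = 0.866). Tcf3 and Tcf12, at -0.03 and 0.0 when pooled in the authors' deposited table, were not called (q = 0.958 and 0.995).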

How the data were processed

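RNA from 3 Bright and 3 Dim libraries was read from the deposited files; samples were grouped by their titles. TopHat2 2.1.1, Cufflinks 2.2.1 and the build mm9 are named in the submitters' processing notes without parameters. The table the authors deposited holds FPKM per Ensembl gene, per the file headers. Of 31584 identifiers found in GENCODE M21, 25568 (81.0%) had coordinates identical to those on GRCm38, so gene coordinates are given on GRCm38. Further tables the authors deposited compare Bright with Dim by a log2 ratio, with p-values and q-values; their test settings are not given in the sources used here.

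The contrast of Bright with Dim was fitted by limma 3.58.1 under R 4.3.3 on log2(FPKM + 1), using eBayes with trend and robust options, over genes that reached 1 FPKM in 3 or more libraries. The pseudocount of 1 understates the change of low genes. Benjamini-Hochberg adjustment ran over all 13416 genes tested, with calls under 0.05; single genes also had an exact two-sided permutation test. The procedure was tested on simulated data, drawn with the spread of the Dim libraries and with no outlying library. That test thus does not cover a library such as Bright 3. Promoter sequences are from RefSeq (GRCm38.p6), were matched by symbol and were read for 5 of the 7 genes. Id1 had no entry, and entries on chromosome 18, which holds Tcf4, were left out.

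The genes and lists were chosen with earlier results of these data known. Named genes are the 7 members, from each list the called genes with the largest fold change (up to 5, or the 2 most abundant where fewer than 2 were called) and for each member the 3 nearest profiles, of which the closest are given; other list genes named were chosen after their values were seen. Of the cofactor list, 1 gene is in the counts and is otherwise not reported here. Depth is approximate: from the steps between low values, 1 read per kilobase was worth about 0.028 to 0.0453 FPKM. Whole reads could not be recovered, so no count test was run and no counting interval is given. Genes with at least 1 FPKM numbered 12999 to 14209 in Bright and 12954 to 13148 in Dim. Alternatives were another pseudocount, other filters, 2 scalings, another variance model, the replicate number as a block and each library left out. Library strandedness is not given in the sources used here.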

Additional observations from a re-analysis of the deposited data

How the results depend on the processing

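Of the 7 genes, Id4 kept its call under every alternative run. Only Id4 was called (1 gene, and 1 higher in Bright) with no filter, under upper-quartile scaling and without the variance trend, where Tcf4 was at 0.82 (adjusted p = 0.115), 0.83 (0.0871) and 0.82 (0.0544). Tcf12 turned to -0.03 under TMM scaling with adjusted p = 0.943, and the cause of these changes was not tested. A filter at 5 FPKM leaves out Id1, Id2 and Id3, so it gave no value for them. With no filter Bmp8b, Eng, Neurog3, Hdac3 and Hey1 lost their calls as well (adjusted p = 0.0658, 0.054, 0.0999, 0.0839 and 0.0762). Neurog3 and Hdac3 also lost theirs under upper-quartile scaling (0.073 and 0.054) and without the trend (0.0504 and 0.058), and Hdac3 under TMM scaling (0.0518).

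With 1 library left out, the log2 fold changes ranged from -0.88 to -0.02 for Id1, -1.65 to 0.28 for Id2, 0.74 to 2.28 for Id3, 2.63 to 2.92 for Id4, -0.01 to 0.23 for Tcf3, 0.56 to 1.03 for Tcf4 and -0.16 to 0.19 for Tcf12. The number of the 7 genes called ranged from 1 to 3, with 1 to 2 higher in Bright and 0 to 2 higher in Dim, the 2 being Id1 and Id2 without Bright 3. Over all genes the calls ranged from 1957 (without Dim 2) to 2603, 1095 to 1418 higher in Bright and 849 (without Dim 2) to 1225 higher in Dim, and with Dim 3 left out they were 1973 and 878 higher in Dim. The list genes called ranged from 16 to 22, all below the 23 of the full set. The ratio of ID to E-protein transcripts differed between the groups by 0.148 to 0.37.

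Libraries numbered 1 and 2 deviated together within a number (r = 0.435 and 0.511 across genes) and apart between numbers (-0.603 and -0.547). Deviations were taken from the mean of each group, so positive values force negative ones elsewhere. The negative values are therefore no separate observation. Libraries numbered 3 did not deviate together (r = -0.194), and Bright 3, which held markers of other cells, correlated best with Dim 1 (r = 0.14). The authors' deposited comparisons also set libraries of the same number side by side. These values cannot exclude that the numbers pair the libraries. The main fit left pairing out. With the replicate number as a block, 5453 genes were called (2607 higher in Bright, 2846 higher in Dim), against 3016 (1608 and 1408) without it, and 2973 were shared. Under the block 41 list genes were called, and of the 7 genes Id4 and Tcf4 (adjusted p = 0.0019). Id2 in Bright 1 and 2 rests on about 10 and 17 reads, which limits how low its level can be read.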

Other observations

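Id4 overlaps the exons of 2 genes on the other strand in the annotation, the antisense gene A330033J07Rik and the lincRNA Gm49291, for which no value is given here. A330033J07Rik was at 0.179, 0.313 and 0.754 FPKM in Bright 1, 2 and 3, against 0.0688, 0.12 and 0.114 FPKM in Dim 1, 2 and 3, far below Id4 in each library. It was not tested, as it stayed under 1 FPKM. Since no source used here gives library strandedness, reads of Id4 and of these genes cannot be told apart where they overlap. No exon of the other 6 genes overlaps an exon of another gene in that annotation.

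Tcf21, a partner of E proteins in mesenchymal cells, was at 10.6 FPKM in Bright 3 and at most 0.668 FPKM in the other 5 libraries, so it was not tested. Bright 3 also held the highest Id1, Id2, Id3 and Tcf4 of the 6 libraries and the lowest Tcf3.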
